A study of Mus musculus with 15 samples.

Results

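The pulmonary surfactant genes and genes characteristic of alveolar type 2 cells were examined in whole-lung RNA-seq of a mouse asthma model. The members were 10 genes listed by symbol, Sftpb, Sftpc, Sftpa1, Sftpd, Napsa, Lpcat1, Abca3, Lamp3, Slc34a2 and Etv5. All 10 were found among the 24054 rows of the table, and all 10 passed the filter on low counts that left 15905 genes for testing. They were listed by name as a functional group, with no cutoff on measured values.

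Lungs came from 15 female wild type mice of the Balb strain, labelled as biological replicates, with 5 animals per group. Animals of the saline group were sham-sensitized and received an isotype control antibody. Those of the OVA group were sensitized by intraperitoneal ovalbumin, the egg white allergen of this model, challenged with nebulized ovalbumin, and received the isotype control too. The anti-IL-4Ra group received ovalbumin in the same way and 30 mg/kg of a monoclonal antibody against mouse IL-4Ra, the receptor subunit through which both IL-4 and IL-13 signal. Every animal thus received an antibody. The sources used here give neither the animals' age nor the times of dosing, challenge and collection. Values in the table are RSEM expected counts per gene, which the authors deposited without normalization. Below they are given as CPM, counts scaled to library totals that were adjusted by the TMM method.

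Surfactant is a film of phospholipid and protein that lowers the surface tension of the alveolus. Alveolar type 2 cells assemble it in lamellar bodies, storage organelles that are released at the apical surface. The hydrophobic proteins SP-B (Sftpb) and SP-C (Sftpc) act in the film itself, whereas the collectins SP-A (Sftpa1) and SP-D (Sftpd) are water-soluble lectins that bind microbes and allergens. Club cells of the airways also make SP-A, SP-B and SP-D, while SP-C is restricted to type 2 cells in the adult lung.

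The promoters of Sftpb and Sftpa1 are shown because these genes had nearly equal counts in every saline lung and came apart in the challenged lungs. Each window is the 250 bases before the transcription start, 5′ to 3′ on the gene's strand, from RefSeq on build GRCm38.p6. Capitals mark matches to a FOXA core (TGTTTNC) or an NKX2-1 core (CTCAAG or CAAGTG), searched on both strands. The Sftpb window lies at chr6:72304360-72304609 on the plus strand, and the Sftpa1 window at chr14:41131538-41131787 on the plus strand.
Sftpb: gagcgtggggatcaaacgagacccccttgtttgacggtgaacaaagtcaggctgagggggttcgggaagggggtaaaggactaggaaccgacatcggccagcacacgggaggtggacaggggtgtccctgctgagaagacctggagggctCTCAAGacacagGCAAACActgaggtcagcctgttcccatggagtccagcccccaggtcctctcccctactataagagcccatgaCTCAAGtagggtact
Sftpa1: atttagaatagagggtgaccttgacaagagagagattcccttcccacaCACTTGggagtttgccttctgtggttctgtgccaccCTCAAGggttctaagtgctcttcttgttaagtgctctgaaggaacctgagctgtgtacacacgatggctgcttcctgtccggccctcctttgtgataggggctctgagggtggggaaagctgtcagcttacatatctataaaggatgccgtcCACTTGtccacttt
The Sftpb window held 2 NKX2-1 cores, which begin 100 and 15 bases before the start, and 1 FOXA core from 88 to 82 bases before it, on the opposite strand. The Sftpa1 window held 3 NKX2-1 cores, which begin 202, 166 and 14 bases before the start, and no FOXA core. None of the windows of members held the STAT6 core searched, TTC and GAA with 4 bases of any letter between them. Among all 32851 RefSeq windows of this length, 17.8% held the FOXA core, 22.6% an NKX2-1 core and 5.85% the STAT6 core. The FOXA core was also found in the windows of Lamp3 (2 matches) and Etv5 (1 match in 1 of its 2 windows), and no core in those of Abca3, Lpcat1 and Slc34a2. No window was matched for Sftpc, Sftpd or Napsa. These matches describe letters and were not tested for binding.

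The saline libraries held 16774285 to 27570666 expected counts in total, the OVA libraries 10042825 to 14706131, and the anti-IL-4Ra libraries 12317805 to 16914475. The libraries also differed in the share of counts on Rn45s, the ribosomal RNA precursor, which was 1.19 to 2.88% in saline lungs, 4.31 to 12.4% in OVA lungs and 1.65 to 12.4% in anti-IL-4Ra lungs. The saline and OVA ranges did not overlap in the totals or in the Rn45s share. Neither can be told apart from the challenge in a simple comparison of these groups. Results are therefore also given from a fit with the log2 Rn45s share as a covariate. That fit takes its slope from the spread within groups and carries it over the gap between saline and OVA. A call lost in it can come from a smaller estimate or from a larger standard error. Sftpc, the defining gene of type 2 cells, took 0.764 ± 0.139% of all counts in the saline lungs (SD, n = 5), and all 10 genes were detected in every library.

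With OVA, 7 of the 10 genes fell and 1 rose against saline, by edgeR's quasi-likelihood test at an adjusted p under 0.05. The lower genes were Sftpb, Sftpc, Napsa, Lpcat1, Abca3, Slc34a2 and Etv5, and the higher gene was Sftpd, while Sftpa1 and Lamp3 were not called. Across all genes tested, 17.8% were called lower and 19.3% higher in this comparison. The median log2 change of the 10 genes was -0.79, against 0.022 over all genes tested. In bulk tissue, fewer cells of a type and less RNA per cell cannot be told apart. Together the 10 genes took 1.69 ± 0.25% of all counts with saline (SD, n = 5), 1.01 ± 0.32% with OVA, and 1.18 ± 0.49% where anti-IL-4Ra was added.

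**Figure D1:**
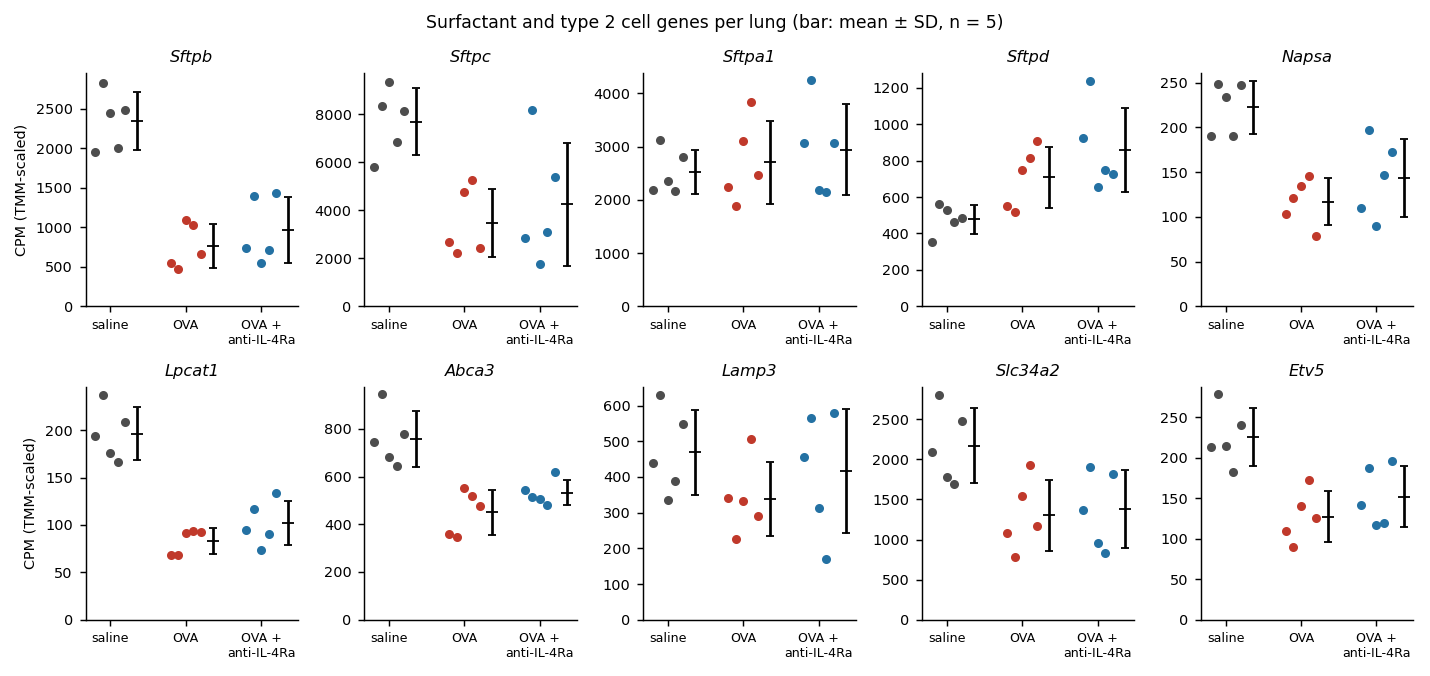
Expression of the 10 surfactant and type 2 cell genes in each lung (CPM, TMM-scaled); points are single animals in replicate order within each of the 3 groups, and bars are the mean ± SD (n = 5). Sftpb, Sftpc, Napsa, Lpcat1, Abca3 and Etv5 are lower in all 5 OVA lungs than in any saline lung, whereas the Sftpa1 values of the groups overlap.

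Sftpb encodes SP-B, the protein needed to spread phospholipid into the surface film and to form lamellar bodies. Its level in the saline lungs (replicates 1 to 5) was 1949, 2831, 2445, 2002 and 2488 CPM. The OVA lungs held 554, 469.9, 1097, 1030.4 and 666 CPM, and the lungs with anti-IL-4Ra 739, 1395, 545, 707 and 1428 CPM. Every challenged lung, treated or not, was below every saline lung. Sftpb was 3.07-fold lower with OVA than with saline, a log2 change of -1.62 ± 0.30 (SE, 95% interval -2.25 to -0.99, edgeR adjusted p = 0.00086). With the Rn45s covariate the change was -0.74 ± 0.27 and was no longer called (adjusted p = 0.116).

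Sftpc encodes SP-C, the most type 2 cell-restricted of the surfactant proteins. In saline lungs it stood at 5807, 8363, 9327, 6842 and 8141 CPM. In OVA lungs it stood at 2686, 2222, 4749.6, 5243 and 2445 CPM, all below the lowest saline lung. The anti-IL-4Ra lungs spread widely, at 2845, 8195, 1752, 3083 and 5375 CPM, and replicate 2 reached the saline range. The change with OVA was -1.15 ± 0.37 on the log2 scale (95% interval -1.93 to -0.37, edgeR adjusted p = 0.0232). That call was lost when OVA replicate 1, 2 or 5 was left out (adjusted p up to 0.0585), and with the Rn45s covariate the change was -0.073 ± 0.36 (adjusted p = 0.917). The anti-IL-4Ra lungs with the most Sftpc, replicates 2 and 5, were those with the lowest Rn45s shares of their group, 3.10% and 1.65%, against 9.79 to 12.4% in the other 3. The part of this in the Sftpc spread was not tested.

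The collectins differed from the hydrophobic proteins. Sftpa1, the single mouse SP-A gene, was at 2189, 3119, 2346, 2175 and 2809 CPM with saline and at 2234, 1888, 3099, 3848 and 2461 CPM with OVA. With anti-IL-4Ra it was at 3065, 4261, 2195, 2144 and 3060.5 CPM. All 3 groups overlapped, and the log2 change with OVA was 0.10 ± 0.23 (95% interval -0.39 to 0.58, edgeR adjusted p = 0.76). With the Rn45s covariate the estimate was 0.64 ± 0.27 (95% interval 0.073 to 1.21) and was again not called (edgeR adjusted p = 0.153).

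Sftpd, which encodes SP-D, was at 352, 560.4, 530.2, 465 and 485 CPM with saline and at 553, 516, 749, 815 and 908 CPM with OVA. It reached 926, 1235, 657, 748 and 726 CPM with anti-IL-4Ra, where every lung was above every saline lung. OVA replicates 1 and 2 lay within the saline range and the other 3 above it. The increase with OVA was 0.57 ± 0.20 on the log2 scale (95% interval 0.14 to 0.99, edgeR adjusted p = 0.0373). The call was lost in 7 of the 10 fits that left out 1 library, namely saline replicate 1, 2, 4 or 5 or OVA replicate 3, 4 or 5 (adjusted p up to 0.108). Its estimate with the Rn45s covariate was 0.76 ± 0.29 (adjusted p = 0.129).

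Ratios between surfactant genes within 1 library do not depend on how libraries are scaled to each other. The counts of Sftpa1 per count of Sftpb ranged from 0.959 to 1.13 in saline lungs, from 2.82 to 4.03 in OVA lungs and from 2.14 to 4.15 in anti-IL-4Ra lungs. The counts of Sftpd per count of Sftpb ranged from 0.181 to 0.232, from 0.683 to 1.36 and from 0.508 to 1.25 in the same order of groups. In both ratios the saline lungs stood apart from all 10 challenged lungs. For OVA against saline the Sftpd to Sftpb ratio rose by 2.23 on the log2 scale, 4.70-fold, and the Sftpa1 to Sftpb ratio rose by 1.75, 3.37-fold (two-sided exact permutation tests, 5 against 5 lungs, adjusted p = 0.0159 each, over 18 ratio tests). The unadjusted exact p of each, 0.00794, is the smallest that relabelling 5 against 5 lungs can give.

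The other ratios followed the same division. Relative to Sftpc, Sftpd rose by 1.77 and Sftpa1 by 1.29 on the log2 scale (exact permutation tests, adjusted p = 0.0159 each). Smaller differences were found within each class, where groups overlapped. Sftpd rose by 0.48 relative to Sftpa1 (exact permutation test, adjusted p = 0.0390) and Sftpc by 0.46 relative to Sftpb (adjusted p = 0.0286, exact permutation test). The Sftpd to Sftpa1 call was lost when saline replicate 1, 2 or 5 or OVA replicate 1, 2, 3 or 5 was left out (adjusted p up to 0.0779, exact permutation test). All 6 ratios were thus called, and the 4 that set a collectin against a hydrophobic protein did not overlap between saline and OVA. These ratios share the same 4 genes, so their calls are not independent of each other. How often ratios of other gene pairs separate the groups was not examined. With the Rn45s share in a linear fit, which gives values without a test, the Sftpd to Sftpb difference was 1.52 and the Sftpa1 to Sftpb difference 1.38. The differences against Sftpc were then 0.87 for Sftpd and 0.73 for Sftpa1. Within the classes, the difference shrank to 0.14 for Sftpd to Sftpa1 and grew to 0.65 for Sftpc to Sftpb. Anti-IL-4Ra replicate 5, with an Rn45s share of 1.65%, within the saline range, had 0.508 counts of Sftpd per count of Sftpb. That was above the saline maximum of 0.232, and it was the lowest such ratio among the challenged lungs. The part of the Rn45s share in these ratios was not tested.

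**Figure D2:**
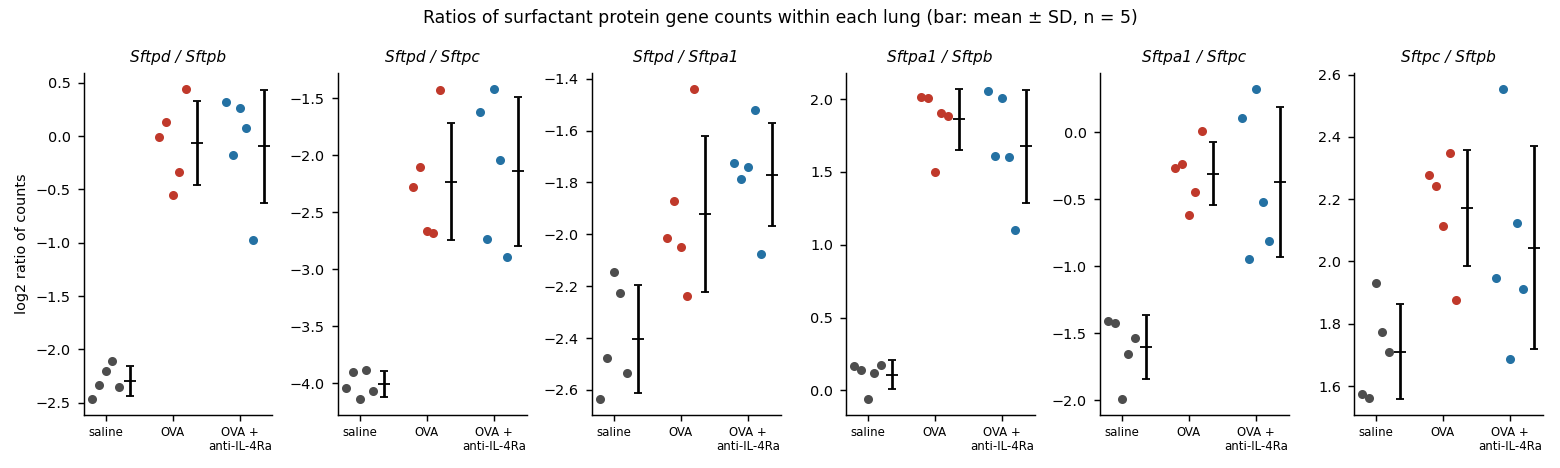
Log2 ratios of counts for the 6 pairs of surfactant protein genes in each lung; points are single animals of the 3 groups in replicate order, and bars are the mean ± SD (n = 5). The saline lungs lie below all 10 challenged lungs in the panels that set a collectin against a hydrophobic protein.

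Among the members that process and package surfactant, Napsa, Lpcat1 and Abca3 were called lower with OVA, and Lamp3 was not called. Napsa encodes napsin A, an aspartic protease that takes part in the maturation of SP-B and SP-C precursors. The saline lungs held 191, 249, 235, 191 and 247 CPM and the OVA lungs 103, 121, 135, 145 and 79.1 CPM. Lungs with anti-IL-4Ra held 110.2, 197, 90.1, 147 and 173 CPM. The OVA lungs lay below all saline lungs, with a log2 change of -0.93 ± 0.20 (edgeR adjusted p = 0.00275). The Rn45s covariate left a change of -0.36 ± 0.22 (adjusted p = 0.308).

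Lpcat1 encodes the acyltransferase that makes dipalmitoylphosphatidylcholine, the main surface-active lipid. Saline lungs held 193, 238, 176, 167 and 208 CPM, and OVA lungs 67.9, 68.0, 91.9, 93.8 and 92.9 CPM. Those with anti-IL-4Ra held 94.9, 117, 73.9, 90.0 and 134 CPM, again all below saline. Its log2 change with OVA, -1.24 ± 0.16 (95% interval -1.59 to -0.90, edgeR adjusted p = 8.45e-05), had the smallest adjusted p of the 10 genes. It alone of the 10 stayed called with the Rn45s covariate, at -0.86 ± 0.19 (edgeR adjusted p = 0.0215). In that fit 1.67% of all genes were called lower and 3.06% higher.

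Abca3 encodes the transporter that loads phospholipid into lamellar bodies. Its values were 745, 948, 681, 645 and 777 CPM in saline lungs and 359, 345, 551, 518 and 478 CPM in OVA lungs. In anti-IL-4Ra lungs they were 542, 515, 508, 479 and 617 CPM. Saline lungs again lay above all 10 challenged lungs. The log2 change with OVA was -0.75 ± 0.15 (edgeR adjusted p = 0.00164), and -0.54 ± 0.20 with the Rn45s covariate (adjusted p = 0.124).

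Lamp3 encodes a membrane glycoprotein of lamellar bodies that is also made by mature dendritic cells. The saline lungs were at 441, 631, 336, 389 and 549.9 CPM and the OVA lungs at 340.4, 226, 332, 505 and 289.9 CPM. The groups overlapped, and the log2 change was -0.47 ± 0.29 (95% interval -1.10 to 0.15, edgeR adjusted p = 0.222). With anti-IL-4Ra the values were 455, 565, 312, 170.2 and 579.5 CPM, the widest spread of the 3 groups. With the Rn45s covariate the estimate for OVA turned to 0.36 ± 0.31 and was again not called. Of 12 markers of mature dendritic cells, 9 rose with OVA and none fell, among them Ccl22 (3.32 on the log2 scale), Cd83 (2.77) and Ccl17 (1.56). Over all genes tested 19.3% were called higher. With the Rn45s covariate 2 of the 12 rose and 0 fell, beside 3.06% of all genes called higher. Without the 4 libraries of highest Rn45s share 8 rose and 0 fell. Ccl17 overlapped between groups and lost its call without saline replicate 1, 2, 3 or 5 or OVA replicate 2, 3, 4 or 5 (highest adjusted p, 0.101). The summed level of these markers was 163 to 209 CPM in saline lungs and 287 to 680.4 CPM in OVA lungs. The part of those cells in the Lamp3 level was not tested.

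Slc34a2 encodes the apical sodium-phosphate cotransporter of type 2 cells, which takes up phosphate freed from phospholipid. Its levels were 2092, 2806, 1774, 1697 and 2477 CPM with saline and 1076, 779.7, 1541, 1935 and 1174 CPM with OVA. OVA replicate 4 lay within the saline range. With anti-IL-4Ra the lungs held 1369, 1904, 953, 831 and 1815 CPM. The change with OVA was -0.74 ± 0.27 on the log2 scale (edgeR adjusted p = 0.0434). That call was lost without saline replicate 1, 2 or 5 or OVA replicate 1, 2 or 5 (adjusted p up to 0.103), and the estimate was -0.0037 ± 0.29 with the Rn45s covariate (adjusted p = 0.995).

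Etv5, an ETS transcription factor downstream of FGF signalling that maintains type 2 cell identity, was at 213, 279, 215, 182 and 241 CPM with saline. It was at 109.5, 90.0, 139.8, 172 and 125 CPM with OVA, without overlap, and at 141, 187, 117, 119 and 196 CPM with anti-IL-4Ra. The log2 change with OVA was -0.83 ± 0.19 (edgeR adjusted p = 0.00344), and -0.30 ± 0.20 with the Rn45s covariate (adjusted p = 0.352). In all, 6 of the 10 genes had OVA values wholly below the saline values, and none wholly above. Over all genes tested those shares were 14.5% and 12.1%.

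**Figure D3:**
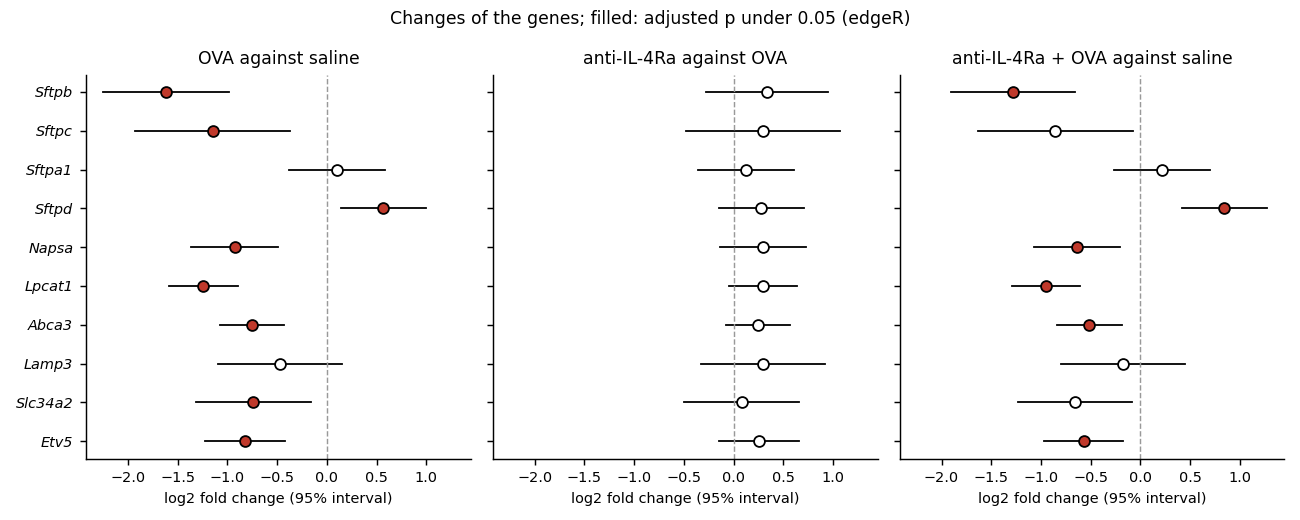
Log2 change of each of the 10 genes in the 3 comparisons, from edgeR; lines are 95% intervals, filled points have an adjusted p under 0.05, and the dashed line marks 0. Estimates for OVA against saline run from -1.62 (Sftpb) to 0.57 (Sftpd), and every interval for anti-IL-4Ra against OVA includes 0.

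With anti-IL-4Ra, none of the 10 genes differed from the OVA lungs beyond the spread between animals. Against OVA with isotype control, all 10 estimates were above 0, from 0.079 for Slc34a2 to 0.33 for Sftpb on the log2 scale, and the groups overlapped for all 10 (over all genes tested, 0.66% lay wholly lower and 0.509% wholly higher). No gene was called, the lowest unadjusted p was 0.0853 (Lpcat1), and 0 of the 10 had an unadjusted p under 0.05 in edgeR's test. DESeq2 and limma's voom also called 0 of the 10. Of all genes tested, only 0.163% were called lower and 0.138% higher, so a count of 0 is near the background. The fit with the Rn45s covariate also called 0 of the 10 (0.239% of all genes lower and 0.163% higher). A setting added after seeing the data left out the 4 libraries of highest Rn45s share, OVA replicate 5 and anti-IL-4Ra replicates 1, 3 and 4. Only replicates 2 and 5 of the anti-IL-4Ra group remained. The estimates then ran from 0.36 (Abca3) to 0.86 (Sftpc) with a median of 0.58, and 0 of the 10 were called (lowest edgeR adjusted p, 0.237). The 10 estimates come from the same lungs, so their common sign is not independent evidence.

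The intervals show which sizes these lungs could not separate from 0. For Sftpb the 95% interval of the log2 change was -0.28 to 0.95, for Sftpc -0.48 to 1.07, for Slc34a2 -0.49 to 0.65 and for Lamp3 -0.33 to 0.92. They were narrower for Lpcat1 (-0.046 to 0.64), Abca3 (-0.081 to 0.56), Etv5 (-0.14 to 0.65) and Napsa (-0.14 to 0.73). For the collectins the intervals were -0.36 to 0.61 (Sftpa1) and -0.15 to 0.70 (Sftpd). None of the 6 ratios differed between anti-IL-4Ra and OVA either, with log2 differences of -0.19 to 0.15 (exact permutation tests, adjusted p from 0.505 to 0.929).

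Set beside saline, with which the OVA comparison also shares its controls, the anti-IL-4Ra lungs had 5 of the 10 genes lower and 1 higher. The shares over all genes were 12.7% lower and 13.9% higher. Sftpb was lower by -1.28 ± 0.29 on the log2 scale (edgeR adjusted p = 0.00584) and Lpcat1 by -0.95 ± 0.16 (adjusted p = 0.000937). Abca3 (-0.51 ± 0.15, adjusted p = 0.022), Etv5 (-0.57 ± 0.19, adjusted p = 0.0354) and Napsa (-0.63 ± 0.20, adjusted p = 0.0311) were also called. Sftpd was higher by 0.84 ± 0.20 (adjusted p = 0.00745), without overlap of the groups. Sftpb, Lpcat1 and Abca3 lay wholly below saline and Sftpd wholly above, where 10.3% and 9.53% of all genes did so. The genes not called were Sftpc (-0.86 ± 0.37, adjusted p = 0.0943), Slc34a2 (-0.66 ± 0.27, adjusted p = 0.0829), Lamp3 (-0.17 ± 0.29, adjusted p = 0.69) and Sftpa1 (0.22 ± 0.23, adjusted p = 0.496). The median over the 10 was -0.60, against 0.016 over all genes tested.

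Single lungs moved the borderline calls of this comparison. Napsa lost its call without saline replicate 2, 3 or 5 or anti-IL-4Ra replicate 1 or 3 (highest adjusted p, 0.0795). Etv5 lost its call without saline replicate 1, 2 or 5 or anti-IL-4Ra replicate 1, 3 or 4 (highest adjusted p, 0.0948). The same held for Abca3 without saline replicate 2 or anti-IL-4Ra replicate 3 (highest adjusted p, 0.0534). The count of lower genes was thus 2 without saline replicate 2 or anti-IL-4Ra replicate 3, and 3 without saline replicate 5 or anti-IL-4Ra replicate 1. Without anti-IL-4Ra replicate 2, Sftpc (-1.27) and Slc34a2 (-0.84) were called as well. With the Rn45s covariate, 0 of the 10 were called lower and 0 higher (0.321% and 2.02% of all genes). Sftpd (1.01 ± 0.27, adjusted p = 0.0626) and Lpcat1 (-0.63 ± 0.18, adjusted p = 0.084) came nearest. In that fit 4 of the 10 had an unadjusted p under 0.05. Of the 6 ratios, 5 were called in this comparison: Sftpd rose by 2.20 relative to Sftpb and Sftpa1 by 1.57 (exact permutation tests, adjusted p = 0.0159 each), while Sftpc relative to Sftpb (0.33) was not called (exact permutation test, adjusted p = 0.107).

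**Figure D4:**
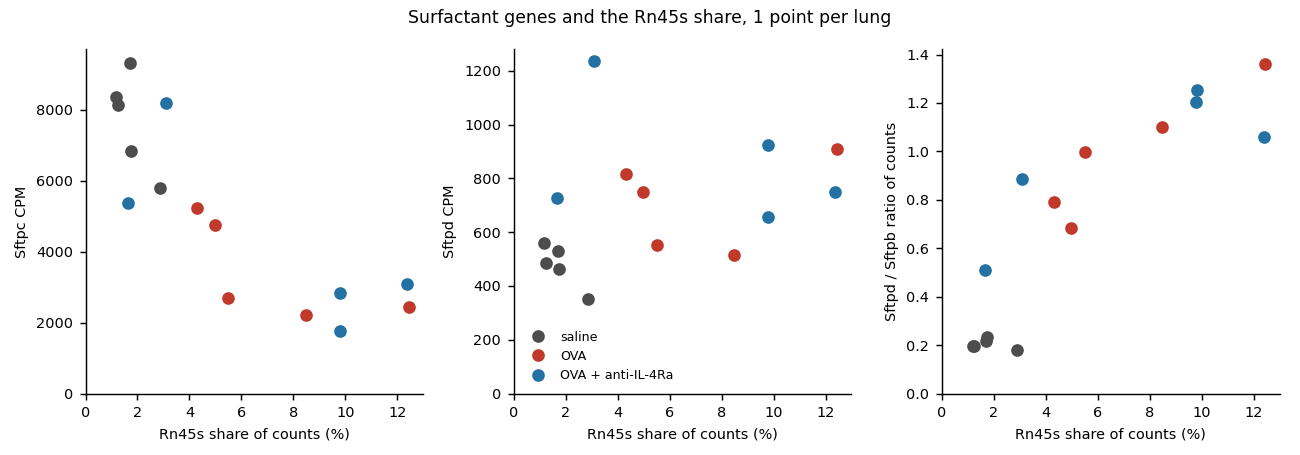
Sftpc CPM, Sftpd CPM and the Sftpd to Sftpb ratio of counts in each of the 15 lungs against the share of counts on Rn45s (percent); points are single animals of the 3 groups. The saline lungs have Rn45s shares of 1.19 to 2.88%, and the anti-IL-4Ra lungs span 1.65 to 12.4%.

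Levels were compared between genes only per kilobase of exon, using exon lengths of GENCODE M21, which may differ from the annotation the authors counted on. In saline lungs the order was Sftpc at 7443 CPM per kilobase, Sftpb at 1191 and Sftpa1 at 884, followed by Slc34a2 at 433 and Sftpd at 198. The rest followed in the order Lamp3, Napsa, Abca3, Etv5 and Lpcat1, from 139.8 down to 42.4 CPM per kilobase. In OVA lungs Sftpc remained first at 3355, but Sftpa1 (946) stood above Sftpb (388), and Sftpd (293) above Slc34a2 (259.5). The order with anti-IL-4Ra was that of the OVA lungs. In each gene the OVA and anti-IL-4Ra lungs overlapped.

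After subtracting each group's mean from the log2 CPM, the 45 pairs of genes had Pearson correlations from 0.28 (Napsa with Abca3) to 0.97 (Slc34a2 with Etv5), with a median of 0.76, over 15 lungs that share depth and tissue sampling. Sftpb and Sftpc had r = 0.94, and Sftpa1 was closest to Slc34a2 (r = 0.95). Sftpd was closest to Sftpa1, at 0.76. All 10 genes lay above their group mean in saline replicates 2 and 5 and in OVA replicates 3 and 4, and none did in saline replicates 1 and 4 or anti-IL-4Ra replicate 3. These are descriptions of shared variation between lungs.

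Outside the 10 genes, those with the most similar deviations to Sftpc were Inmt, Ecscr and Rnase4 (r = 0.96 each, of 15895 genes compared over 15 lungs). Their log2 changes with OVA were -2.20, -1.01 and -1.04 (edgeR adjusted p = 0.00177, 0.00564 and 0.0127). Those most like Sftpd were St6galnac2 (r = 0.90), Siglec5 (0.89), the table's older symbol for Siglecf, and Ace3 (0.88). Their log2 changes with OVA were 0.41, -0.76 and -0.12 (edgeR adjusted p = 0.0794, 0.00515 and 0.733), so that only Siglec5 was called, and as lower. Sftpa1 and Sftpd lie on chromosome 14 with 1 protein-coding gene between them, Mbl1, which was at 0.801 to 2.04 CPM of the library total in all lungs.

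Other markers of type 2 cells moved less evenly. Of 19 tested, 8 fell with OVA and 3 rose, with a median of -0.56. Among all genes tested 17.8% were called lower and 19.3% higher. In the Rn45s covariate fit 0 of the 19 fell and 2 rose, and the median was 0.06. That fit called 1.67% of all genes lower and 3.06% higher. With the 4 libraries of highest Rn45s share left out, 7 fell and 2 rose (median -0.52). The largest changes among the called genes were those of Bex2 (-2.16, edgeR adjusted p = 0.0014), the lysozyme gene Lyz1 (-1.81, adjusted p = 0.000356) and Acoxl, an acyl-CoA oxidase-like gene (-1.54, adjusted p = 0.00202). Lyz2, a lysozyme gene of type 2 cells and macrophages, was the only gene of the lists called between anti-IL-4Ra and OVA in the fit without covariate. Its mean was 2408 ± 300 CPM in saline lungs, 928 ± 174 CPM in OVA lungs and 2098 ± 675 CPM in anti-IL-4Ra lungs (SD, n = 5). The rise with anti-IL-4Ra was 1.18 ± 0.22 on the log2 scale (edgeR adjusted p = 0.0281), and it was 1.09 ± 0.17 with the Rn45s covariate (adjusted p = 0.00661). The call was lost without OVA replicate 1, 4 or 5 or anti-IL-4Ra replicate 2 or 5 (adjusted p 0.0572 to 0.0922), at changes of 1.05 to 1.19. In the covariate fit Sox9 was called as well, lower by -1.69 (adjusted p = 0.00892). Without the 4 libraries of highest Rn45s share, Fabp1 (2.38, adjusted p = 0.0487) and Itln1 (-4.28, adjusted p = 0.0159) were called beside Lyz2. Only replicates 2 and 5 of the anti-IL-4Ra group remained in that fit.

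Among 14 transcription factors that regulate surfactant genes or lung epithelium, 6 fell with OVA and 0 rose, with a median of -0.52. The shares of all genes tested were 17.8% lower and 19.3% higher. The largest changes were in Gata6 (-0.73, edgeR adjusted p = 0.00175), Foxa2 (-0.70, adjusted p = 0.0134) and Srebf1, the regulator of lipid synthesis (-0.68, adjusted p = 0.00357). Foxa2 averaged 36.6 ± 6.1 CPM with saline and 22.6 ± 5.2 CPM with OVA. Nkx2-1, named because its core was searched in the promoters and after its values were seen, was at 113 ± 14 CPM with saline and 95.4 ± 24.2 CPM with OVA (log2 change -0.25, adjusted p = 0.268).

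Of 20 genes of surfactant lipid synthesis, 6 fell and 0 rose (median -0.57), beside 17.8% lower and 19.3% higher of all genes tested. The lower genes were led by the fatty acid elongase Elovl1 (-1.27, edgeR adjusted p = 0.000462), Agpat2, which makes phosphatidic acid (-1.19, adjusted p = 0.0458), and Acly, which makes acetyl-CoA for lipid synthesis (-1.09, adjusted p = 0.0335). Agpat2 and Acly overlapped between groups, and their changes rested on saline replicate 1: without it they were -0.39 (adjusted p = 0.294) and -0.35 (adjusted p = 0.129). Both calls were also lost without OVA replicate 2 or 5, and that of Agpat2 without OVA replicate 3 or 4 (highest adjusted p, 0.102). Lipid genes are shared with adipose tissue, and Adipoq, an adipocyte marker, ranged from 0.1002 to 224 CPM of the total in the saline lungs. Its part in these levels was not tested.

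Of 19 genes of lamellar bodies and secretion, 5 were lower and 4 higher with OVA (median -0.22), shares near the 17.8% and 19.3% of all genes. None of the 19 was called with the Rn45s covariate (median -0.15). With the 4 libraries of highest Rn45s share left out, 7 of 20 tested were lower and 5 higher (median -0.16). Gpr116, the older symbol of Adgrf5, a receptor that limits the surfactant pool, fell by 1.45 on the log2 scale (edgeR adjusted p = 0.00191), and Itm2b by 1.06 (adjusted p = 0.00225). P2ry2, the receptor through which ATP triggers surfactant release, rose by 0.90 (adjusted p = 0.000677), from 12.3 ± 1.8 to 22.9 ± 4.1 CPM. Gpr116 is also expressed by endothelium, of whose 10 markers 9 fell.

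Among 12 genes of surfactant clearance, 3 fell and 3 rose with OVA (median -0.068), again near the shares of all genes. With the covariate 0 fell and 0 rose (median -0.12), and without the 4 libraries of highest Rn45s share 2 fell and 3 rose (median 0.030). Prdx6, whose phospholipase activity degrades internalized surfactant lipid, fell by 1.26 on the log2 scale (edgeR adjusted p = 0.00088), and Pparg, a factor of alveolar macrophage lipid handling, by 0.97 (adjusted p = 0.0138). The Pparg groups overlapped, and without saline replicate 1 its change was -0.53 (adjusted p = 0.0298). Csf2ra, a subunit of the GM-CSF receptor that macrophages need to clear surfactant, rose by 0.89 (adjusted p = 0.00698). The summed level of 12 alveolar macrophage markers was 549 to 1387 CPM with saline and 1684 to 5209 CPM with OVA, with 3 markers higher and 4 lower. Most of the sum's difference came from Chil3, a chitinase-like gene at 84.6 ± 12.4 CPM with saline and 2629 ± 1191 CPM with OVA. Without Chil3 the sums were 444 to 1306 and 593 to 1023 CPM.

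In the FGF and ETS list, which surrounds Etv5, 8 of 12 genes fell and 1 rose (median -0.63). The shares over all genes tested were 17.8% and 19.3%. The feedback inhibitor Spry1 fell by 1.66 on the log2 scale (edgeR adjusted p = 2.77e-05), from 100.5 ± 9.8 to 31.9 ± 8.1 CPM, and the ligand Fgf7 by 1.17 (adjusted p = 0.0115). Sox9, a factor of progenitors and of cartilage, rose by 3.47 (adjusted p = 5.5e-05), from 1.57 ± 0.94 to 17.8 ± 2.1 CPM, and stood at 5.94 ± 3.07 CPM with anti-IL-4Ra.

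The markers of other lung cells moved beside the surfactant genes. With OVA, 11 of 12 type 1 cell markers fell (median -1.28), as did 9 of 10 club cell markers (median -1.57) and 9 of 10 endothelial markers (median -1.02). Club cells also make Sftpb, Sftpa1 and Sftpd. Their summed markers were 14484 to 33422 CPM in saline lungs, 4966 to 12931 CPM in OVA lungs and 6721 to 18604 CPM in anti-IL-4Ra lungs. Much of these sums was Scgb1a1, at 8709 to 21485, 2690 to 8432 and 4022 to 11617 CPM in the same order of groups. All 10 goblet cell markers rose (median 5.67). Of 12 markers of the transitional epithelium seen after alveolar injury, 3 fell and 0 rose, and of 10 ciliated cell markers 1 fell and 0 rose. For all these lists, the shares over all genes tested were 17.8% lower and 19.3% higher. The part of any of these cells in the surfactant genes' levels was not tested. With the Rn45s covariate most of these calls ended. In that fit 1 of 14 transcription factors, 0 of 20 lipid synthesis genes and 1 of 12 FGF and ETS genes were called lower. It called 1.67% of all genes lower and 3.06% higher. Of the markers, 0 of 12 type 1, 2 of 10 club and 1 of 10 endothelial were called lower, and 8 of 10 goblet higher. More calls stayed without the 4 libraries of highest Rn45s share. Then 12 of 12 type 1, 9 of 10 club and 9 of 10 endothelial markers were lower, and 10 of 10 goblet markers higher. Lower too were 5 of 14 transcription factors, 2 of 20 lipid synthesis genes (1 higher) and 7 of 12 FGF and ETS genes (1 higher).

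**Figure D5:**
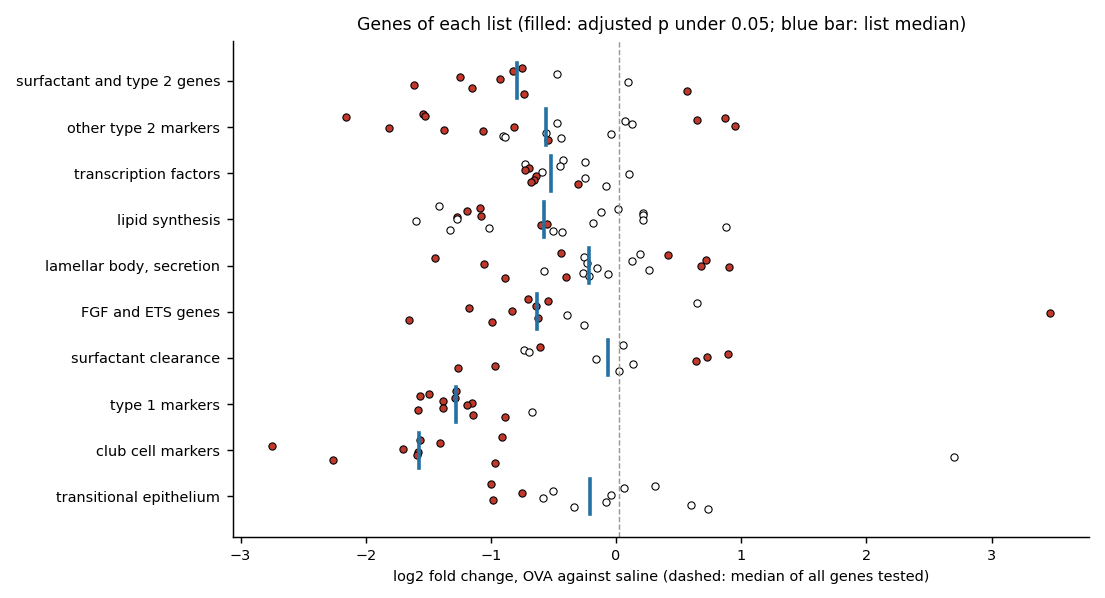
Log2 change with OVA against saline for every tested gene of each list, 1 row for each of 10 lists; points are genes, filled where the adjusted p is under 0.05, blue bars are list medians and the dashed line is the median of all genes tested. The surfactant and type 2 cell genes have a median of -0.79, against -0.52 for the transcription factors and -1.28 for the type 1 cell markers.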

How the data were processed

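RNA from whole lungs of 15 mice was sequenced, 1 library per animal. Per the labels' protocols, libraries were strand-specific, and both ribosomal RNA depletion and oligo-dT purification are named. The authors deposited a single table of expected counts per gene symbol, without normalization. Per the submitters' processing notes the tools were Bowtie2 2.1.0 and RSEM 1.2.15. Reads that match several genes are split by RSEM's estimate, and in each library 17.0 to 20.0% of values were not whole (tolerance 0.005). The notes name build hg38 although the symbols are mouse symbols, so the table was read as mouse genes, and the sources used here name no annotation.

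Expected counts were rounded, filtered with filterByExpr and scaled by TMM, and all 15 libraries entered 1 quasi-likelihood fit (edgeR 4.0.16, R 4.3.3). All tests are two-sided, adjusted p values are Benjamini-Hochberg values over the 15905 genes tested, and a gene was called below 0.05. Standard errors were derived from the F statistic, and intervals are 95% intervals on the fit's degrees of freedom. Ratios used 0.5 added to each count and exact permutation of 5 against 5 lungs, adjusted over 18 tests. The scripts were tested on simulated data. Replicate pairs differed by a chi-square of 9.80 to 217 per gene, so each library counted once.

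The members and the 14 other gene lists were chosen with earlier results of these data known. Named were all 10 members, at most 3 called genes per other list with the largest change with OVA, any list gene called between anti-IL-4Ra and OVA, and the 3 genes most like Sftpc and Sftpd. The list entries Adgrf5, Clca1, Siglecf and Cfap126 were matched to older symbols. Alternatives were DESeq2 1.42.0 (its size factors and its Wald test), limma 3.58.1 (voom), library totals, no low count filter, Rn45s left out or as covariate, only the groups compared, a replicate block, another ratio pseudocount (5), and each library left out in turn. Leaving out the 4 libraries with the highest Rn45s share, and the Rn45s covariate for ratios, were added after seeing the data.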

Additional observations from a re-analysis of the deposited data

Results flagged for a closer look

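Of 54 groups of 5 lungs examined for a value far from the rest, 2 had one, about the number that chance gives at 1 in 20. Both concern the log2 ratio of Sftpa1 to Sftpb, and in each the replicate 3 is the lowest of its group. In saline replicate 3 the ratio was -0.0597, while the other saline lungs lay between 0.12 and 0.18. In OVA replicate 3 it was 1.498, while the other OVA lungs lay between 1.88 and 2.01. With both lungs kept, the saline and OVA ranges of this ratio did not overlap.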

How the results depend on the processing

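With the Rn45s covariate the counts of called members were 1 lower and 0 higher for OVA against saline (7 and 1 without it) and 0 lower and 0 higher for anti-IL-4Ra against saline (5 and 1). Leaving out the 4 libraries of highest Rn45s share was a setting chosen after seeing the data that leaves fewer lungs. In it 6 members were lower and 0 higher for OVA against saline, and 0 lower and 1 higher for anti-IL-4Ra against saline. The anti-IL-4Ra group then held replicates 2 and 5 only, so fewer calls can also come from fewer lungs. No member was higher with OVA without the low count filter. Estimates that changed sign with the Rn45s covariate were Lamp3 with OVA against saline (0.36), Lamp3 (0.52) and Sftpc (0.0344) with anti-IL-4Ra against saline, and Slc34a2 with anti-IL-4Ra against OVA (-0.0296). Lamp3 was 0.31 for anti-IL-4Ra against saline without those 4 libraries. For anti-IL-4Ra against OVA the ratio differences turned to 0.0416 for Sftpd to Sftpb and to 9.04e-05 for Sftpa1 to Sftpc. The cause of these changes was not tested.

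Leaving out 1 library at a time gave 5 to 7 members lower and 0 to 1 higher for OVA against saline, 2 to 7 lower and 1 higher for anti-IL-4Ra against saline, and 0 for anti-IL-4Ra against OVA. Estimates that changed sign in such fits ranged from -0.10 to 0.20 for Sftpa1 with OVA against saline, and from -0.34 to 0.0068 for Lamp3 with anti-IL-4Ra against saline. For anti-IL-4Ra against OVA they ranged from -0.0783 to 0.51 for Sftpc, -0.0387 to 0.30 for Sftpa1 and -0.0581 to 0.28 for Slc34a2. The ratios there ranged from -0.16 to 0.19 (Sftpd to Sftpb), -0.0873 to 0.29 (Sftpd to Sftpc) and -0.23 to 0.0849 (Sftpa1 to Sftpc). Called ratios numbered 5 to 6 for both comparisons with saline, and 0 for anti-IL-4Ra against OVA.

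Replicate numbers did not pair the lungs: of 15 same-numbered pairs 2 had deviations correlated above 0.1 (r from -0.55 to 0.35), and 1 library correlated best with its own number. With a replicate block, 0 members were higher for OVA against saline and 3 were lower for anti-IL-4Ra against saline. Sftpc, Sftpd and Slc34a2 then had edgeR adjusted p = 0.0533, 0.0701 and 0.112 for OVA against saline. No ratio was called with the block (0 of 6 in each comparison with saline), where 0.0625 is the smallest p that the exact test allows. DESeq2 called Sftpc (adjusted p = 0.0474) and Slc34a2 (0.0495) lower with anti-IL-4Ra against saline, voom called Sftpc (0.0463), and with library totals Slc34a2 had 0.0541 for OVA against saline.

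Over all genes, 26 were lower and 22 higher for anti-IL-4Ra against OVA. DESeq2 gave 66 and 62, the replicate block 15 and 11, the fit of the 2 groups alone 13 higher, and the fit without the 4 libraries 8 lower. Leave-one-out fits gave 18 to 36 and 13 to 27. The 2829 lower and 3069 higher genes with OVA became 266 and 486 with the Rn45s covariate. The 2025 lower and 2211 higher for anti-IL-4Ra against saline became 51 and 322 with that covariate, 1346 lower with the block, 57 and 512 without the 4 libraries, and 1247 to 2400 lower when 1 library was left out. The lowest expected count of a member in any library was 771, so counting error was small beside the spread between lungs.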
